A study of Saccharomyces cerevisiae with 112 samples.

Results

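The 100 genes described here are those whose mRNA peaked 5 min after starved wild-type budding yeast cells were returned to fresh medium. They were taken from 5567 genes that passed a filter on low values, out of 6319 genes in the deposited table. In the wild types wt1 and wt2, each gene was ranked by the smaller of 2 differences, 5 min minus starvation and 5 min minus 30 min, and the highest 100 were chosen by that value. A level is given throughout as log2 of the coverage of the coding sequence relative to the median gene of the same library, so a level of 0 is that of the median gene and a difference of 1 is a doubling. The wild-type values of the 100 genes therefore chose them and are given as a description with no test. The tests used 6 other strains, whose values did not enter the ranking, although the filter on low values used the libraries of all 8.

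The series followed 8 strains through midlog growth, 72 h of starvation at 30 °C, 5, 30 and 90 min after release, and 1 and 2 doublings after release, with 2 libraries for each strain and time. Strain oeSir3 was a W303 strain (THC70) in which SIR3 was deleted (sir3∆::HIS3) and an HA-tagged Sir3 was driven by the GAL10 promoter from the ura3-1 locus. It also carried mat∆::TRP1, hmr::rHMRa, hml∆::kanMX, bar1∆::hisG and lys2∆, with the mutant alleles of ADE2, CAN1, HIS3, LEU2 and TRP1 of W303, and it alone was grown in, and released into, galactose medium (YPGal). The deletion strains sir2D and sir4D came from the MATa yeast deletion collection, with KanR in place of the gene, and sir3D (MRL5.1) was an S288C strain with sir3Δ:KANR; all had ura3, leu2, his3 and met15 alleles. Strains Sir3_3xHA and Sir3_3xT7 were wt1 derivatives with Sir3 tagged at its C-terminal end, before and after an estradiol-induced switch of the tag, and the submitters call them hypomorphs; they are independent neither of each other nor of wt1. Wild type wt1 (NKI12318) was an S288C MATa strain with his3d200, leu2d0 and lys2d0 alleles, further with met15d0, trp1d63, ura3d0 and bar1::HisG, and with the estradiol-dependent recombinase Pgpd_CRE_EBD78. Wild type wt2 (JOY1) was a BY4741 derivative lacking BAR1. All strains except oeSir3 were grown in glucose medium (YPD). The labels do not say whether the libraries of a group came from separate cultures, so the p-values below measure the spread between these libraries, which may be technical.

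Yeast that has run out of glucose stops dividing and switches to respiration, and fresh medium reverses this within minutes through the Ras and cAMP pathway, the Snf3 and Rgt2 glucose sensors and the kinases Snf1 and TORC1. Known early targets include hexose transporter genes, genes for regulators that shut off alternative carbon use, and the genes for ribosomes, which stay high as growth resumes. A transient transcript can be made in a burst and then lost by decay. Neither synthesis nor decay was measured here.

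Libraries differed in depth, and the median gene had between 4.0 and 119.5 reads of coverage. In 6 libraries the median gene had fewer than 10 reads, and those at starvation or 5 min were library 1 of Sir3_3xT7 and library 1 of sir3D at 5 min, at 4.0 reads each, and library 2 of oeSir3 at starvation, at 9.0 reads. The deleted gene was the lowest of the 8 strains in each deletion, with a median level over 14 libraries of -4.90 for SIR2 in sir2D, -4.48 for SIR3 in sir3D and -5.16 for SIR4 in sir4D, and SIR3 had a median level of 3.24 in oeSir3. A series is the 7 libraries of a strain with 1 replicate number. The value that stands for no coverage was set separately for each library in 6 series of libraries and shared in the other 10. Both series of sir4D and of oeSir3 had the shared value; the other strains had 1 series of each kind. In the wild types a member's median over 4 libraries ran from 12.5 to 10458 reads at 5 min, with a median over members of 362.5 reads, against 68.4 reads at starvation and 95.1 reads at 30 min.

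Relative to the median gene, the 100 genes as a group were near it before release, rose sharply and were back near it within 90 min. In the 12 libraries of the 6 strains, the median member had a level of -0.45 in midlog cells, 0.19 at starvation, 2.41 at 5 min, 0.47 at 30 min, 0.06 at 90 min, -0.26 after 1 doubling and -0.44 after 2 doublings, each the median of the 12 library medians. The 5 min values ran from 1.18 to 2.58 and lay above all 12 library medians of every other time. In the 4 wild-type libraries the same medians were -0.44, 0.33, 2.57, 0.70, -0.05, -0.43 and -0.59. The lowest 5 min library was library 1 of Sir3_3xT7, a shallow one, which held the lowest of the 12 values for 39 of the 100 genes.

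**Figure D1:**
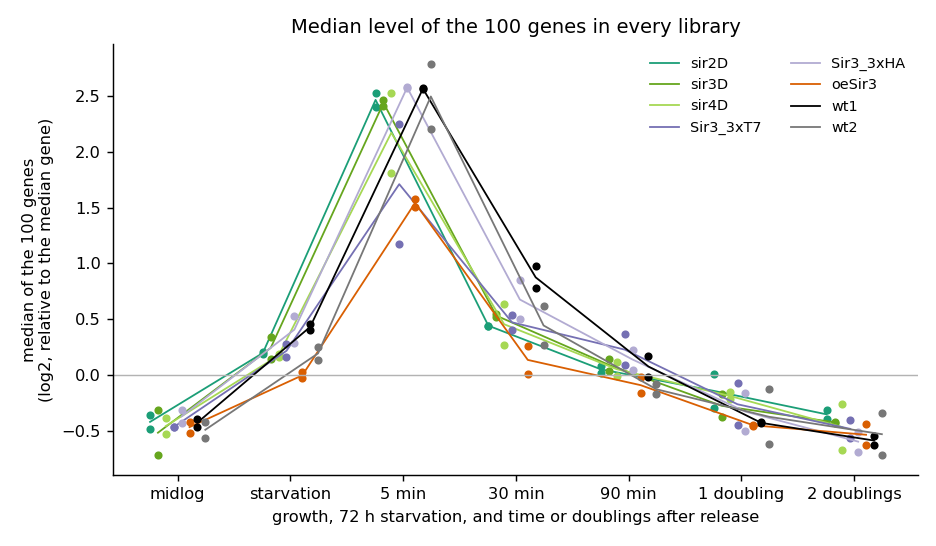
Median level of the 100 genes (log2, relative to the median gene of the library) on the vertical axis against growth state on the horizontal axis, for 8 strains; points are the 2 libraries of a strain and lines join their means. At 5 min the 12 libraries of the 6 strains that did not choose the genes sit between 1.18 and 2.58, and oeSir3, at 1.51 and 1.58, is low among them.

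Promoter sequence is shown for 5 of the genes that lead the ranking, because they differ in which of the searched motifs they hold although all 5 peaked at 5 min. Each is 300 bases that end 51 bases before the start codon, from the RefSeq genome, build R64, matched by locus tag and written 5′ to 3′ on the strand of the gene. Capitals mark the stress response element AGGGG or its complement CCCCT, the Mig1 motif CCCCGC and the Rgt1 motif CGGANNA, on either strand.
FMP48 (chrVII:593246-593545, plus strand): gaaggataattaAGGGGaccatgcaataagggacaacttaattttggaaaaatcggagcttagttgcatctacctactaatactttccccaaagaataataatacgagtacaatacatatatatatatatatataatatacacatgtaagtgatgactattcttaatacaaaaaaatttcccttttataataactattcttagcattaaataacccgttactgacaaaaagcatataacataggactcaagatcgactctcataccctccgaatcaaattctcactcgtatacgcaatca
RCK1 (chrVII:206683-206982, plus strand): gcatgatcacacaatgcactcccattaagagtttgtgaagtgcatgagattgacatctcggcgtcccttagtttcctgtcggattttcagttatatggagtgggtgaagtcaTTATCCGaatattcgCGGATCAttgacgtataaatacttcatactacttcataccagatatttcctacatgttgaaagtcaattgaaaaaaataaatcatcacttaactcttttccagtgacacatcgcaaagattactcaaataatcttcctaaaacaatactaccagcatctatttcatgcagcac
YNR014W (chrXIV:652115-652414, plus strand): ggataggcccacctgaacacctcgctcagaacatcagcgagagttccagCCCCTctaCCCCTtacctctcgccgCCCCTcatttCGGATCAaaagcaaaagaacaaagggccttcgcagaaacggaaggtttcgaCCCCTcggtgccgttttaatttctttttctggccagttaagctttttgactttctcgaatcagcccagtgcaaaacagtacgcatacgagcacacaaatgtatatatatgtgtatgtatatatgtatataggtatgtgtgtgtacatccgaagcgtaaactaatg
HXT2 (chrXIII:287729-288028, plus strand): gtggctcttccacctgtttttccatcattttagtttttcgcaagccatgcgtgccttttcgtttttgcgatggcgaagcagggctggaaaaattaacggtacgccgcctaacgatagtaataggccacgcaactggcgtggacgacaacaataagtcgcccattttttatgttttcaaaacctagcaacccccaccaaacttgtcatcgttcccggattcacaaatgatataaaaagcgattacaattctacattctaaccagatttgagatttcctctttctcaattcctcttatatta
YOR062C (chrXV:443582-443881, minus strand): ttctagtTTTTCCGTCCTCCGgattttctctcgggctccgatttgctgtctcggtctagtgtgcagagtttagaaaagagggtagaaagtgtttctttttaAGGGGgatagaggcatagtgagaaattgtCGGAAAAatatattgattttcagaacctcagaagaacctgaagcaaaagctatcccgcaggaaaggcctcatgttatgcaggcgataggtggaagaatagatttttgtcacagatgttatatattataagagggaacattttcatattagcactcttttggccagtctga
FMP48 held 1 stress response element, 338 bases before the start codon. RCK1 held none, but 2 Rgt1 motifs, starting 238 and 223 bases before it. YNR014W held 4 stress response elements, starting 301, 293, 276 and 215 bases before its start codon, with 1 Rgt1 motif among them at 266. YOR062C held 1 stress response element at 249 and 3 Rgt1 motifs at 343, 336 and 220. None of the 3 motifs was in the window of HXT2.

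A stress response element was in 25% of 96 member promoters, against 23.1% of all 5355 promoters of the same length, and at least 2 were in 4.17% of the member promoters and 3.98% of all. The motif of the heme-regulated repressor Rox1, ATTGTT, was in 33.3% and 33.6%. The Mig1 motif was in 7.29% of member promoters and 3.44% of all, and the Rgt1 motif in 37.5% and 28.7%, with at least 2 copies in 10.4% and 5.21%. Motifs of the cell cycle were rarer among members: the SCB motif CGCGAAA was in 0 of 96, against 4.54% of all, and the MCB motif ACGCGT in 1.04%, against 3.88%. So were the heat shock element GAANNTTC, in 7.29% and 12.3%, and the PAC motif GATGAG, in 14.6% and 19.4%. The rest of the motifs searched were TTCNNGAA (13.5% and 13.5%), Gcn4 (9.38% and 8.59%) and RRPE (7.29% and 8.38%). They also included Pho4 (5.21% and 4.09%), GATA (12.5% and 14.3%) and Rap1 (10.4% and 7.97%). No share was tested. A match is a run of letters, not a bound site, and motifs may overlap.

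In the wild types, the gene with the highest rank was FMP48, for a mitochondrial protein with a kinase domain. Its level was 0.25 and 0.59 in wt1 and -0.06 and -1.78 in wt2 at starvation, 4.45 and 5.04 in wt1 and 3.90 and 4.10 in wt2 at 5 min, and 1.19 and 0.99 in wt1 and 0.13 and -0.67 in wt2 at 30 min. All 4 values at 5 min lay above those at the other times. RCK1, a protein kinase gene linked to oxidative stress, was barely detected before release, at -3.35 and -2.96 in wt1 and -2.27 and -3.00 in wt2, with a median of 1 read. At 5 min it stood at 2.12 and 1.98 in wt1 and 1.01 and 0.38 in wt2, and at 30 min at -1.61 and -2.22 in wt1 and -2.37 and -2.43 in wt2, again with no overlap.

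HXT2, a glucose transporter gene induced at low glucose, had levels of -1.78 and -2.47 in wt1 and 0.40 and -1.53 in wt2 at starvation, 2.25 and 2.36 in wt1 and 2.26 and 5.06 in wt2 at 5 min, and -0.998 and 0.24 in wt1 and 0.85 and 1.75 in wt2 at 30 min. The 5 min values lay above the others, and library 2 of wt2 stood apart from the other 3. HXT7, for a high-affinity glucose transporter nearly identical to Hxt6, so that its reads may be shared, was uneven at starvation, with -3.35 and 2.34 in wt1 and 5.29 and 1.84 in wt2. At 5 min it had 5.51 and 4.16 in wt1 and 4.83 and 4.09 in wt2, and at 30 min 0.94 and -1.57 in wt1 and 1.20 and -2.31 in wt2. Its 5 min levels overlapped the starvation level of library 1 of wt2, and did not overlap those at 30 min.

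SUT1 and SUT2 encode related zinc cluster transcription factors. SUT1 had levels of -0.82 and -1.10 in wt1 and -1.09 and -1.10 in wt2 at starvation, 2.37 and 2.55 in wt1 and 2.15 and 2.81 in wt2 at 5 min, and 0.35 and 0.52 in wt1 and -0.28 and 0.75 in wt2 at 30 min. SUT2 had -0.56 and -1.01 in wt1 and 0.46 and -0.37 in wt2 at starvation, 3.13 and 2.56 in wt1 and 3.15 and 3.34 in wt2 at 5 min, and 0.80 and 1.07 in wt1 and 0.57 and 1.13 in wt2 at 30 min. These were among the tightest of the leading genes, with an SD at 5 min of 0.28 for SUT1 and 0.34 for SUT2 (n = 4 each). ROX1, for the repressor of hypoxic genes, had 1.90 and 3.86 in wt1 and 0.05 and 1.88 in wt2 at starvation, 4.35 and 5.45 in wt1 and 3.56 and 5.18 in wt2 at 5 min, and 2.58 and 3.38 in wt1 and 1.13 and 2.94 in wt2 at 30 min. Library 2 of wt1 at starvation was above library 1 of wt2 at 5 min, so these groups overlapped.

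Over all members, the 4 wild-type values at 5 min lay above all 4 at starvation for 66 genes and above all 4 at 30 min for 58 genes, against 10.6% and 13.2% of the 5567 tested genes. The rule used these values, so nothing is read from those counts. The ranking score ran from 3.97 for FMP48 down to 1.01 for HOR7, the gene ranked 100, and exceeded 2 in 21 genes. DIP5, ranked 99, also scored 1.01, FCY2, the first gene outside, scored 1.01, and DFP2, the next, scored 1.00, so the edge is not a break in the data. The difference to 30 min was the smaller of the 2 for 58 genes and the difference to starvation for 42.

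In the 6 strains that did not choose the genes, all 100 had a higher fitted level at 5 min than at starvation and than at 30 min, relative to the median gene. The peak passed the test on both sides for 71 of them, against 1.67% of all tested genes. A side passed the test where limma's adjusted p over the 5567 genes was under 0.05 and the log2 difference at least 1. In the opposite direction no member passed, against 7.8% of all genes lower at 5 min than at starvation and 13% lower than at 30 min. The rise to 5 min alone passed for 83 members, against 12.4% of all genes, and the excess over 30 min for 86, against 15.4%. The median member was higher at 5 min than at starvation by 1.66 and than at 30 min by 1.47 (log2), while the median over all genes was -0.21 for the first difference and 0.00 for the second. Among the 20 genes of highest rank, the rise over starvation was largest for HXT2, with 4.46 ± 0.31 (SE) over starvation and 2.89 ± 0.31 over 30 min (adjusted p = 2.87e-19 and 3.44e-12, limma), followed by RCK1, with 3.93 ± 0.21 and 2.52 ± 0.21 (adjusted p = 9.4e-25 and 1.7e-16, limma), and FMP48, with 3.40 ± 0.25 and 4.21 ± 0.25 (adjusted p = 1.5e-18 and 1.23e-22, limma).

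The size of the fall depended on the scale. On the deposited spike-in scale, which sets each library against added fission yeast RNA, the median of all genes in the 6 strains was higher at 5 min than at starvation by 0.26 and lower than at 30 min by 1.31 (-1.31, log2). On that scale all 100 members were still above starvation at 5 min, against 3820 of the 5567 tested genes. Their median rise was 2.13, and 96 passed the test. Fewer members, 56 of the 100, were above their 30 min level, against 595 of the 5567 tested genes. The median excess of the members was 0.16 (0.155), and the peak passed on both sides for 21. From 30 to 90 min the median change on that scale was -0.31 over members and 0.06 over all genes. Both the excess over 30 min and the later fall were thus small beside the rise of 2.13. The return by 90 min described above holds relative to the median gene. In the wild types on the spike-in scale, 100 members were higher at 5 min than at starvation and 96 higher than at 30 min, with medians of 2.28 and 0.64. By strain on that scale, members above 30 min numbered 93 in sir4D, 90 in sir3D and 78 in Sir3_3xHA. There were 57 in sir2D, 42 in oeSir3 and 24 in Sir3_3xT7. Of all 5567 genes, no more than 1235 were above 30 min in any of the 6 strains. The excess over 30 min on the spike-in scale thus varied between strains. The level of the median gene per spike-in was itself higher at 30 min. All changes below are relative to the median gene. The spike-in was added per mass of total RNA, so more mRNA per cell and less ribosomal RNA per cell cannot be told apart.

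**Figure D2:**
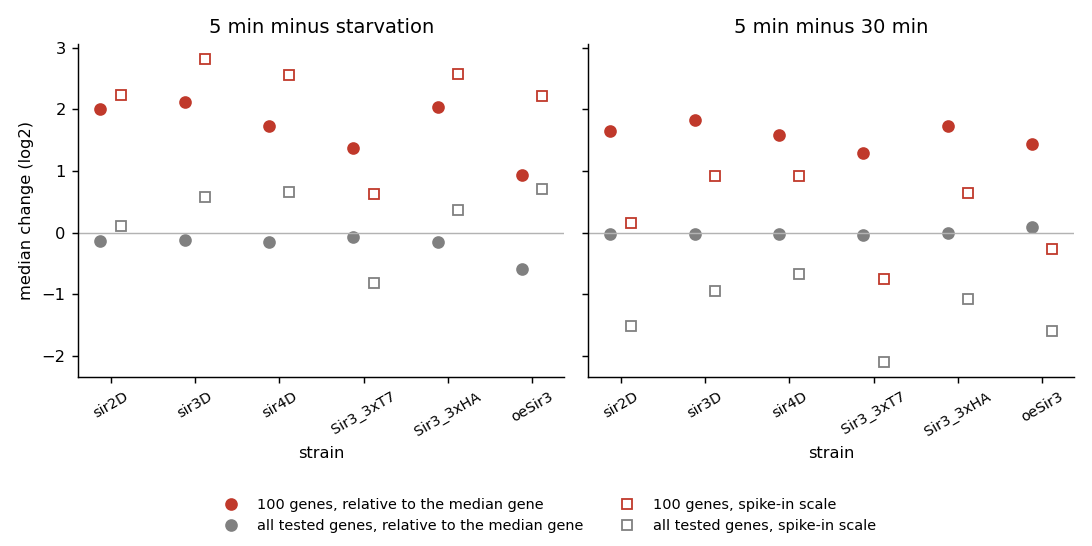
Median log2 change in each of 6 strains (horizontal axis) for the 100 genes (red) and all 5567 tested genes (grey), relative to the median gene (filled circles) or on the spike-in scale (open squares); left, 5 min minus starvation, right, 5 min minus 30 min. The 100 genes lie above all genes in every strain on both scales, while on the spike-in scale their median against 30 min falls to -0.75 in Sir3_3xT7 and reaches 0.92 in sir4D.

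**Figure D3:**
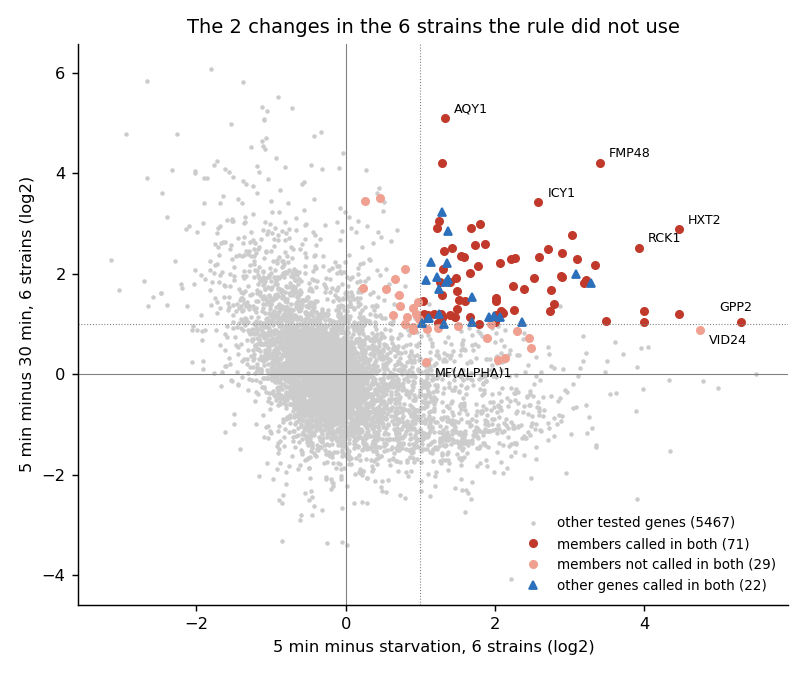
Log2 difference of 5 min minus starvation (horizontal axis) against 5 min minus 30 min (vertical axis) in the 6 strains, 1 point per gene, with dotted lines at 1. The 71 members called in both (red) and the 29 that were not (pink) all lie right of and above 0, and 22 genes outside the 100 (blue triangles) were also called in both.

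In single strains, with 2 libraries for each time, the peak passed the test on both sides for 51 members in sir3D (against 1.46% of all genes), 50 in Sir3_3xHA (1.08%), 45 in sir2D (1.02%), 27 in sir4D (0.665%), 19 in oeSir3 (0.772%) and 17 in Sir3_3xT7 (0.359%). With the series of libraries as a block, these counts were 49 in sir4D and 35 in Sir3_3xT7. Depth differed between the strains, and its part in these counts was not tested. Without the libraries whose median gene had under 10 reads, sir3D had 27 and Sir3_3xT7 26. The counts rest on both series: without series 1 and without series 2 of the strain they were 11 and 24 in sir3D, 14 and 19 in Sir3_3xHA, 9 and 8 in sir2D, 15 and 6 in sir4D, 6 and 9 in oeSir3, and 13 and 2 in Sir3_3xT7, with the lone library assumed to vary like the others. On the spike-in scale they were 6 in sir3D, 8 in Sir3_3xHA, 3 in sir2D, 5 in sir4D, 7 in oeSir3 and 0 in Sir3_3xT7. The rise alone passed for 72 members in sir3D (against 12% of all genes), 71 in Sir3_3xHA (9.29%), 67 in sir2D (7.62%), 52 in sir4D (8.73%), 37 in Sir3_3xT7 (4.19%) and 35 in oeSir3 (8.41%). The excess over 30 min passed for 66 in sir3D (9.97%), 63 in Sir3_3xHA (14.4%), 60 in sir2D (13.3%), 49 in oeSir3 (16.9%), 43 in sir4D (7.94%) and 39 in Sir3_3xT7 (11.2%). The rise was thus called in most members in 4 of the 6 strains. The median member rose to 5 min by 2.11 in sir3D, 2.04 in Sir3_3xHA, 1.999 in sir2D, 1.73 in sir4D, 1.37 in Sir3_3xT7 and 0.93 in oeSir3 (log2). Setting the 3 sir deletions against the 2 tagged strains, no member differed past the threshold in the change to 5 min, against 0% of all genes, and none in the difference from 30 min, against 0.0359% higher and 0% lower, by limma over all genes. At an unadjusted p under 0.05 there were 2 members for the first difference, against 1.94% of all genes, and 9 for the second, against 2.96%; with the series as a block, 1 member was called in the second.

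Among all 100 members, 71 passed on both sides, 83 for the rise and 86 for the excess over 30 min. Of all genes, 1.67%, 12.4% and 15.4% did. As higher than midlog, 85 members passed at 5 min and 49 at starvation, against 19% and 22.5% of all genes. The groups by role below were not tested against these counts. Genes for transcription regulators made up 18 of the 100, and 16 of them passed on both sides. Their median change in the 6 strains was 1.70 over starvation and 1.67 over 30 min, and all 18 passed the test as higher at 5 min than in midlog cells. SUT1 had a lowest, median and highest level over 12 libraries of -1.63, -1.05 and -0.38 at starvation, 0.13, 2.81 and 3.10 at 5 min, and -0.65, 0.09 and 0.73 at 30 min, which gave 3.34 ± 0.18 over starvation and 2.18 ± 0.18 over 30 min. Only the lowest 5 min libraries reached into the 30 min range. SUT2 rose by 3.10 ± 0.17 and stood 2.30 ± 0.17 above 30 min. STP4, related to the amino acid sensing factors Stp1 and Stp2, had -1.16, 1.91 and 3.69 at starvation, 4.03, 4.25 and 6.56 at 5 min, and 0.16, 1.65 and 3.73 at 30 min, so that no 5 min value overlapped either group. NRG1, for a repressor of glucose-repressed genes, was 1.49 ± 0.28 above starvation and 1.65 ± 0.28 above 30 min, and ROX1 2.53 ± 0.26 and 1.91 ± 0.26. YPR015C, an uncharacterised zinc finger gene, was higher by 1.42 ± 0.23 and 2.52 ± 0.23. PHD1, HMS1 and SOK2, each for a regulator linked to filamentous growth, rose over starvation by 2.07, 1.80 and 1.95, and the excess of SOK2 over 30 min, 1.00, missed the threshold. MSN4, for an activator of stress genes, was 3.05 above its 30 min level. The bZIP factor genes CIN5 and YAP6 rose over starvation by 1.46 and 1.23, and the homeodomain factor genes TOS8 and CUP9 by 1.29 and 1.40. CUP9 encodes a repressor of PTR2, the peptide transporter gene, which was itself a member and rose by 1.66.

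Kinases, GTPases and cAMP signalling genes made up 10 of the 100, and 7 passed on both sides; all 10 passed for the rise to 5 min, with a median change of 2.44. FMP48 had a lowest, median and highest level of -0.96, 0.53 and 4.70 at starvation, 2.64, 4.40 and 5.29 at 5 min, and -1.64, 0.24 and 1.42 at 30 min. The starvation values that overlapped those at 5 min were the 3.40 and 4.70 of oeSir3. RCK1 had -3.99, -3.13 and -1.20 at starvation, -1.996, 1.53 and 2.40 at 5 min, and -2.42, -1.69 and -0.11 at 30 min. It had no reads in 7 of the 12 starvation libraries, so the size of its rise depends on the pseudocount. Some members encode proteins that act against the cAMP signal. PDE2, for the high-affinity cAMP phosphodiesterase, rose by 3.995, and RGS2, which switches off the glucose-sensing G protein Gpa2, by 2.88 ± 0.25, with an excess over 30 min of 1.95 ± 0.25. RAS1, whose product activates adenylate cyclase, rose by 2.49, and its excess over 30 min, 0.52, did not pass. SKS1 and TDA1 encode kinases linked to glucose use; SKS1 rose by 2.39 ± 0.23 and TDA1 by 1.48.

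**Figure D4:**
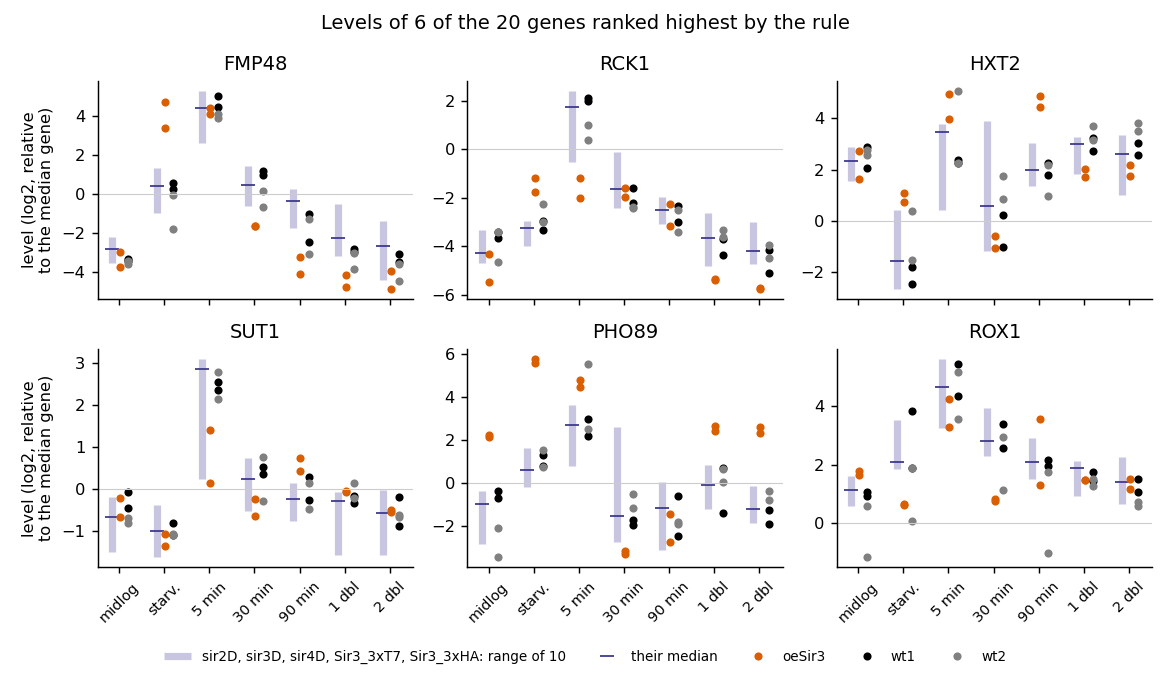
Level (log2, relative to the median gene) of 6 of the 20 genes of highest rank at 7 growth states; bars span the lowest to highest of 10 libraries of the strains in glucose that did not choose the genes, dashes are their medians, and points are single libraries of oeSir3 (orange), wt1 (black) and wt2 (grey). FMP48 and PHO89 in oeSir3 were already high at starvation, at 3.40 and 4.70 for FMP48 and 5.76 and 5.58 for PHO89, while RCK1 in oeSir3 reached only -1.996 and -1.17 at 5 min.

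Transporters and channels made up 16 members. All 16 passed for the excess over 30 min, with a median of 1.80, but 10 passed for the rise, with a median of 1.31, and 9 passed the test as higher at starvation than in midlog cells. HXT2 had a lowest, median and highest level of -2.65, -1.48 and 1.08 at starvation, 0.44, 3.62 and 4.93 at 5 min, and -1.16, 0.49 and 3.89 at 30 min, and its midlog median was 2.33. It was 1 of 12 members called lower in starved than in midlog cells, by 3.40 (-3.40, log2), and 5 min brought it to 1.06 above midlog. HXT7 had -1.87, 0.48 and 3.43 at starvation, -1.28, 2.87 and 4.01 at 5 min, and -4.004, -0.59 and 1.49 at 30 min, which gave 1.67 ± 0.63 over starvation and 2.91 ± 0.63 over 30 min (adjusted p = 0.0209 and 6.21e-05, limma); all 3 ranges overlapped. PHO89, a sodium-phosphate cotransporter gene, had -0.18, 0.93 and 5.76 at starvation, 0.78, 3.08 and 4.81 at 5 min, and -3.27, -1.89 and 2.60 at 30 min, and its excess over 30 min was 4.21 ± 0.35. MEP1, for an ammonium permease, was 1.55 ± 0.18 above starvation and 2.36 ± 0.18 above 30 min. AQY1, an aquaporin gene, had the largest excess over 30 min of any member, 5.10. The second aquaporin gene is split in S288C into AQY2 and YLL053C, which overlap by 50 bases, so that their reads may be shared; AQY2 rose by 2.25 ± 0.27 and YLL053C by 2.11 ± 0.46. Permease genes for amino acids, sulfate and iron were present too: BAP3 rose by 1.27 and FET4 by 1.79, while SUL1 was 1.89 above its 30 min level and DIP5 3.51.

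Metabolic enzymes made up 12 members, of which 10 passed on both sides, with a median rise of 1.87. The largest was GPP2, for glycerol-3-phosphatase, at 5.29. Sphingolipid synthesis was represented by SUR2 (2.80 over starvation) and purine synthesis by ADE12 (1.66). ADI1 and UTR4, a pair of genes of the methionine salvage pathway, rose by 1.59 and 1.30. DLD3, for a cytosolic D-lactate dehydrogenase, was 2.57 above its 30 min level. PHO3, for an acid phosphatase, was the 1 member that passed the test as lower at 5 min than in midlog cells, by 1.21 (-1.21, log2).

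Genes for handling protein, RNA and DNA made up 13 members, with 8 passing on both sides. VID24, which targets gluconeogenic enzymes for degradation when glucose returns, rose by 4.74. Its excess over 30 min of 0.89 did not reach the threshold. ERO1, for an oxidase of the endoplasmic reticulum, rose by 2.74. TMC1 and CUZ1, for a pair of proteins tied to the proteasome and metal stress, rose by 1.39 and 1.18. ANB1, the hypoxic form of the translation factor eIF5A and a known target of Rox1, was 2.46 above 30 min. Mitochondrial genes contributed 4 members, with 1 passing on both sides, POR2, which rose by 2.08.

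The other 27 members lack a role used here, and 20 of the 100 are known by a locus tag alone. Of the 27, 19 passed on both sides. YMR244W had a lowest, median and highest level of -0.51, -0.10 and 2.60 at starvation, 1.18, 3.42 and 4.49 at 5 min, and -0.61, 0.63 and 2.86 at 30 min. YNR014W had -2.62, -1.44 and -0.39 at starvation, -1.68, 1.59 and 2.70 at 5 min, and -2.25, -1.17 and -0.42 at 30 min; its low values at 5 min were those of oeSir3. YOR062C had -0.07, 0.41 and 2.23 at starvation, 2.71, 2.86 and 3.41 at 5 min, and -0.07, 0.52 and 2.16 at 30 min, so that its 12 values at 5 min lay above both other groups. DIA1, linked to invasive growth, rose by 2.59 ± 0.28 and stood 2.33 ± 0.28 above 30 min. YMR320W rose by 2.24 ± 0.26, YBL029W by 2.22 ± 0.32 and YPL025C by 2.01 ± 0.25. ICY1 had -0.53, 2.54 and 4.22 at starvation, 3.02, 4.84 and 5.81 at 5 min, and 0.88, 1.25 and 2.44 at 30 min, which gave 2.58 ± 0.20 and 3.43 ± 0.20.

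The 5 members with the smallest peak in the 6 strains were MF(ALPHA)1, ATO3, CIS1, YDR133C and RPL8A. MF(ALPHA)1, for the α-factor mating pheromone, was 0.23 ± 0.30 above 30 min (adjusted p = 0.508, limma), with 5 min values of -2.15, -0.01 and 1.43 inside the 30 min range of -3.06 to 1.59. YDR133C and RPL8A, a ribosomal protein gene with the near-identical copy RPL8B, rose by 2.04 ± 0.29 and 2.14 ± 0.33 but differed from 30 min by 0.28 ± 0.29 and 0.33 ± 0.33 (adjusted p = 0.413 and 0.389, limma). ATO3, of a family of ammonium and acetate transporters, and CIS1 did the opposite. They were 1.71 ± 0.18 and 3.44 ± 0.34 above 30 min, but differed from starvation by 0.24 ± 0.18 and 0.25 ± 0.34 (adjusted p = 0.27 and 0.546, limma).

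Most members were higher at the peak than in growing cells. At 5 min, 85 passed the test as higher than in midlog cells of the 6 strains, against 19% of all genes, and 1 as lower, against 16%. At starvation, 49 passed as higher than in midlog cells, against 22.5% of all genes, and 12 as lower, against 18.9%. Both classes share the starvation libraries with the rise. The 49 had a median rise to 5 min of 1.46, a median excess over 30 min of 1.82 and a 5 min level of 3.41 above midlog. For the 12, the median rise was 2.38 and the median excess over 30 min 1.03, and 4 of them passed as higher than midlog at 5 min; they included HXT2, RAS1, FET4, GPP2, RPL8A and PHO3. From 30 to 90 min, 19 members fell further, against 3.48% of all genes, and 3 rose, against 4.1%, namely HXT2, PHO3 and RPL8A, by 2.15, 1.40 and 1.40. YMR244W fell by 2.32 and VID24 by 1.83. After 2 doublings no member differed from midlog by limma's test, against 0% of all genes higher and 0.018% lower, with 7 at an unadjusted p under 0.05, against 5.28% of all genes; with the series as a block, 2 were lower. On the spike-in scale the picture before release differs, with 4 members called higher and 49 called lower than midlog at starvation. At 5 min on that scale, 55 were called higher and 5 lower than midlog. The median difference of starvation from midlog there was -0.96 over members and -1.86 over all genes (log2). At 5 min it was 1.15 over members and -1.51 over all genes.

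Cells overexpressing SIR3 in galactose changed these genes differently from the 5 strains in glucose. The change to 5 min was smaller in oeSir3 for 30 members, against 4.96% of all genes, and larger for 4, against 1.06%. The median difference was -0.88 over members and -0.37 over all genes (log2), and on the spike-in scale 0.09 and 0.60. Medium, the W303 background and the SIR3 level all differ between these strains and cannot be told apart. The genes were chosen for a peak in wild types in glucose, which itself favours a smaller peak in a strain unlike them. How much of the difference comes from that choice was not tested. The result also rests on few libraries: without library series 1 of oeSir3 12 members had a smaller change, without series 2, 3 had, without the libraries under 10 reads 19 had, and on the spike-in scale 1 had. The count of larger changes was 1 without either series of oeSir3, 2 on the spike-in scale and 8 with the series as a block.

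Picking genes for a smaller change itself favours low values at 5 min or high values at starvation. The split of the 30 below is therefore a description. It was not made for the genes outside the 100 that had a smaller change. Of the 30 genes, 14 had both oeSir3 values at 5 min below all 10 of the strains in glucose, 13 had both at starvation above all 10, 1 (RCK1) had both, and 2 had neither. Over all 100 members, oeSir3 was below all 10 at 5 min for 24 genes, against 17.2% of all genes, and above all 10 at starvation for 31, against 35.8%. It was above all 10 at 5 min for 16, against 19.4%, and below all 10 at starvation for 21, against 18.9%. FMP48 was of the second kind: oeSir3 had 3.40 and 4.70 at starvation, against -0.96 to 1.31 in the 5 strains in glucose, and 4.08 and 4.42 at 5 min, against 2.64 to 5.29, a difference in the change of -3.83 ± 0.66 (adjusted p = 6.67e-05, limma). YMR320W was of the first kind, with -1.84 and -2.66 at 5 min in oeSir3, against 1.48 to 4.64 in the 5 strains, and a difference of -4.17 ± 0.71 (adjusted p = 5.17e-05, limma). It was also lower in growing oeSir3 cells than in the wild types, by 4.08 (-4.08, log2). RCK1 had -1.76 and -1.20 at starvation in oeSir3, against -3.99 to -2.96, and -1.996 and -1.17 at 5 min, against -0.52 to 2.40, so it did not rise in oeSir3, and the difference of -4.84 ± 0.55 was the largest (adjusted p = 6.21e-09, limma); on the spike-in scale it was -3.86 and passed the test. AQY2 and YLL053C differed by -4.04 ± 0.73 and -4.02 ± 1.23 (adjusted p = 0.00013 and 0.036, limma). Leaving out either series of oeSir3 ended the call of YLL053C (adjusted p = 0.208 without series 1 and 0.417 without series 2), and leaving out series 2 ended that of FMP48 (0.0586). On the spike-in scale the calls of YMR320W, AQY2, YLL053C and FMP48 were lost, with values of -3.19, -3.06, -3.04 and -2.86. When the libraries of 1 replicate number were left out of every strain, the call of YMR320W was lost without either number (adjusted p = 0.139 without number 1 and 0.521 without number 2, limma), as was that of YLL053C (0.467 and 0.904), and those of AQY2 and FMP48 without number 2 (0.36 each). YLL053C also missed the threshold with a pseudocount of 0.1 (0.0783) and without the libraries under 10 reads (0.107).

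ICY1 had the largest change in the other direction. In oeSir3 it was at -0.53 and -0.30 at starvation, against 1.68 to 4.22 in the 5 strains in glucose, and at 5.60 and 5.81 at 5 min, against 3.02 to 5.55, so both times lay outside the range of the 10 libraries. The difference in the change was 4.24 ± 0.54 (adjusted p = 9.27e-08, limma), and 5.22 on the spike-in scale. SKS1 was at 0.28 and 0.99 at starvation in oeSir3, against 1.46 to 2.72, and at 4.77 and 5.06 at 5 min, against 3.29 to 4.70, a difference of 2.27 ± 0.61 (adjusted p = 0.0148, limma). YDR133C differed by 2.40 ± 0.77 (adjusted p = 0.0456, limma). STP4, at 2.69 ± 1.06, and CIS1, at 2.30 ± 0.91, missed the threshold (adjusted p = 0.115 and 0.116, limma) and passed it with the series as a block (adjusted p = 0.00758 and 0.0254, limma). Without series 1 or series 2 of oeSir3 the calls of SKS1 (adjusted p = 0.248 and 0.193) and YDR133C (0.291 and 0.403) were lost. That of ICY1 held there, and was lost without number 1 or number 2 in every strain (adjusted p = 0.0831 and 0.21, limma), as were those of SKS1 (0.649 and 0.817) and YDR133C (0.63 and 0.772). SKS1 also missed the threshold on the spike-in scale (0.175), and YDR133C with a pseudocount of 0.1 (0.104), with no filter on low values (0.0526) and without the libraries under 10 reads (0.211). In the change from 5 to 30 min, 23 members had a smaller excess at 5 min in oeSir3, against 11.3% of all genes, and 15 a larger one, against 10.6%. Leaving out 1 series of oeSir3 gave 12 and 11 of the smaller and 8 and 7 of the larger.

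**Figure D5:**
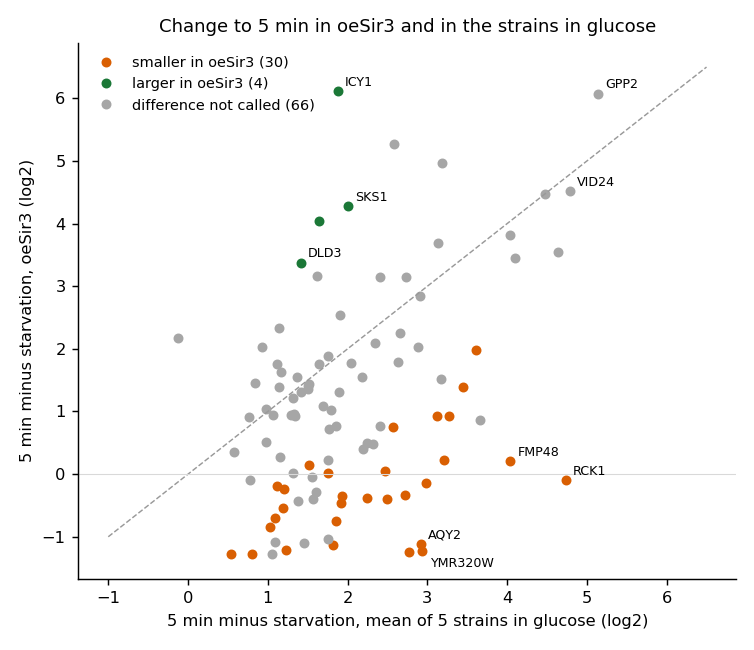
Log2 change from starvation to 5 min in oeSir3 (vertical axis) against its mean in 5 strains in glucose (horizontal axis), 1 point per member, with a dashed line of equal change. The 30 members with a smaller change in oeSir3 (orange) include RCK1, FMP48, YMR320W and AQY2, the 4 with a larger one (green) include ICY1, SKS1 and DLD3, and GPP2 and VID24 rose in both.

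In growing cells, 9 members were called higher and 15 lower in oeSir3 than in the wild types, against 7.9% and 5.95% of all genes, so that the count of higher ones is near that of all genes. On the spike-in scale 15 were called higher and 6 lower. The higher ones included HXT7 (5.13), PTR2 (4.96) and PHO89 (3.29), and the lower ones YMR320W (-4.08), CIS1 (-3.32) and ANB1 (-3.09). Without series 1 of oeSir3, 9 were lower. Each deletion or tagged strain had at most 1 such member: FMP48 was higher in sir2D by 1.64 and ICY1 in sir4D by 1.08, and none was called lower. Of all genes, 0.341% were called higher and 0.629% lower in sir2D, 0.18% and 0.557% in sir3D, 0.287% and 0.611% in sir4D, 0.0539% and 0.0539% in Sir3_3xT7, and 0.0539% and 0.018% in Sir3_3xHA. At an unadjusted p under 0.05 there were between 2 members in Sir3_3xHA and 13 in sir4D, against 0.719% and 4.63% of all genes. Both single calls were lost when either series of the deletion strain was left out, and when series 1 of wt1 was; that of ICY1 was lost also without series 2 of wt1 or of wt2.

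Gene lists of known pathways held 33 of the 100 members, and members are 100 of the 5567 tested genes. Of 42 tested genes in a list of glucose and nutrient regulators 7 were members. Of 14 hexose transport genes 2 were, of 16 glycerol and osmotic response genes 2 and of 24 amino acid and peptide permease genes 3. Of 21 phosphate genes 3 were, and of 34 genes of the Ras, kinase A and TOR pathways 3. In the Ras, kinase A and TOR list 3 genes rose and 6 fell to 5 min, with a median change of -0.46. Other lists held 0 members, among them glycolysis and fermentation (24 tested), the TCA cycle (16), the respiratory chain (26) and autophagy (35). Shares of lists were not tested. Cytosolic ribosomal protein genes, by contrast, rose and went on rising: 92 of 104 passed for the rise to 5 min, and 70 were lower at 5 min than at 30 min, with medians of 1.64 and -1.20 (log2), and RPL8A was the single member among them. Of 97 ribosome biogenesis genes 73 rose and 60 were lower at 5 min than at 30 min, and none was a member. Most general stress genes were lower already at 5 min, with 18 of 26 lower and 2 higher at 5 min than at starvation and 23 higher at 5 min than at 30 min; HOR7 was the member among them. In the authors' deposited table, 4 clusters of unstated meaning held 20, 7, 36 and 37 members, or 20%, 7%, 36% and 37%, against 22.3%, 6.7%, 27.6% and 43.4% of the tested genes.

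Members had a shorter median length than the tested genes, with 960 bases from start to stop codon in 96 annotated members, against 1242 bases in 5355 tested genes. None had more than 1 coding exon, against 3.25% of the tested genes. The 1886 genes outside the group that were no longer than the member median had median differences of -0.18 at 5 min over starvation and 0.02 over 30 min. There were 7 pairs of neighbouring members, of which 4 were divergent, namely VID24 and SND3 (688 bases between coding regions), YGR050C and FMP48 (1153), GIP3 and ISU1 (905) and FET4 and YMR320W (2207). Pairs and their orientation were not counted over all genes, so nothing is read from these numbers. KNH1 lay next to STP4 and MMO1 next to PHD1 on the same strand, at 864 and 105 bases, and YLL053C overlapped AQY2.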

How the data were processed

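Values deposited by the authors are the log2 of the median read coverage of each coding sequence, scaled to S. pombe RNA that, per the labels, was added to total RNA at 10 to 1 by mass before stranded mRNA library preparation. CASAVA 1.7.0 and the build ASM294v2 (S. pombe) stand in the submitters' processing notes; for S. cerevisiae the build is not given, and neither are aligner and counter. In each library the most frequent value, which stands for no coverage (344 to 1173 genes), was set to 0. Tests used log2(linear value + 0.03) minus the library's median over the 5567 genes above 0.15 in at least 4 libraries; fold changes of low genes are understated on this scale. Depth in reads was recovered from the steps of the coverage.

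All libraries entered 1 limma 3.58.1 fit (R 4.3.3) with 56 groups and 56 residual degrees of freedom, and contrasts averaged the 6 strains. Growing cells were compared on series means over midlog and 1 and 2 doublings, with 8 residual degrees of freedom. A call needed a two-sided p, adjusted by Benjamini and Hochberg over 5567 genes, under 0.05 and a log2 difference of at least 1. The fit was run on simulated data with noise drawn separately for each library. That setting lacks any link between the libraries of a series, so it cannot show how such a link affects the calls. Differences between the replicates of a strain at 5 min and at starvation or 30 min correlated over genes at 0.20 to 0.77 in all 8 strains, so replicate numbers were taken to pair libraries, and a fit with the series as a block (48 residual degrees of freedom) was an alternative. Others changed the scale, pseudocount, filter and batch or left out libraries or strains. Contrasts that share the 5 min libraries are not independent. Tables and figures were made in Python 3.11.15 (numpy 2.4.6, pandas 2.3.3; figures with matplotlib 3.10.9).

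The members, gene lists, roles and tests were chosen with earlier results of these data known. By rule, full values are given for the 20 members of highest rank, the 10 with the largest and 5 with the smallest peak in the 6 strains, and the 5 with the largest and 5 with the smallest oeSir3 difference; promoters were limited to at most 6 of the 20, and 5 are shown. The Rgt1 and Rox1 motifs were added after the members were seen. Of the members, 96 matched an R64 locus tag.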

Additional observations from a re-analysis of the deposited data

Results flagged for a closer look

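Among the 20 genes of highest rank, 60 sets of 4 wild-type values (starvation, 5 min and 30 min) were checked. In 3 of the 60, a library was flagged as apart from the other 3 relative to their spread. Chance gives about 1 in 20, so the count is not above that. HXT2 at 5 min was 5.06 in library 2 of wt2, against 2.25 to 2.36 in the others. YMR320W at 5 min was 1.37 in library 1 of wt2, against 3.48 to 3.78. SUT1 at starvation was -0.82 in library 1 of wt1, against -1.10 to -1.09, a small distance flagged because the others lay close together.

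The response to release differed between oeSir3 and the 5 strains in glucose by a test of the difference itself. The change to 5 min was smaller for 30 members, against 4.96% of all genes, and larger for 4, against 1.06%. The excess of 5 min over 30 min was smaller for 23, against 11.3%, and larger for 15, against 10.6%. By gene, the difference of the change to 5 min was -4.84 for RCK1, -4.17 for YMR320W, -4.04 for AQY2, -4.02 for YLL053C and -3.83 for FMP48, and 4.24 for ICY1, 2.40 for YDR133C and 2.27 for SKS1 (log2, all past the threshold by limma). On the spike-in scale 1 member had a smaller change to 5 min and 2 had a larger one. The calls of YMR320W, AQY2, YLL053C, FMP48 and SKS1 were lost on that scale. Strain background, medium and SIR3 level cannot be told apart here. Choosing the genes on wild types in glucose itself favours smaller changes in oeSir3, and its part was not tested.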

How the results depend on the processing

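Of the 100 genes, 53 stayed when the selection was made on the spike-in scale, 93 to 98 under other pseudocounts, no filter on low values or the most frequent value kept, 88 without any 1 wild-type series and 77 from either wild type alone. On the spike-in scale, members passing on both sides fell to 21 and those above 30 min to 23; in single strains they were 3 in sir2D, 6 in sir3D, 5 in sir4D, 0 in Sir3_3xT7, 8 in Sir3_3xHA and 7 in oeSir3. At 5 min 55 members were called higher and 5 lower than midlog, at starvation 4 higher and 49 lower. The changes of oeSir3 to 5 min were smaller for 1 and larger for 2, and its excess over 30 min was larger for 2. In growing oeSir3 15 were higher and 6 lower, and in sir2D and sir4D 0 were higher. With a pseudocount of 0.1, oeSir3 had 19 smaller changes and sir2D 0 higher. Without libraries under 10 reads, sir3D had 27, Sir3_3xT7 26, oeSir3 19 smaller changes, and 2 members were called lower than midlog at 5 min.

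With the replicate block the count on both sides was 71, as without it. The block gave 49 in sir4D, 35 in Sir3_3xT7, 2 below midlog after 2 doublings, 8 larger changes in oeSir3, 1 higher in the sir deletions than in the tagged strains against 30 min, and the calls of STP4 and CIS1 in oeSir3; it changed no other call of a gene described in full and no other count by over 1.5 times.

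Leaving out replicates gave 49 to 78 members on both sides in the 6 strains. In single strains it gave 4 to 9 in sir2D, 6 to 24 in sir3D, 3 to 15 in sir4D, 1 to 13 in Sir3_3xT7, 5 to 19 in Sir3_3xHA and 5 to 9 in oeSir3, with fewer libraries. It gave 0 to 1 below midlog at 5 min, 11 to 13 lower at 90 than at 30 min, 1 to 12 smaller and 0 to 1 larger changes in oeSir3, 6 to 12 smaller and 2 to 8 larger excesses over 30 min there, 9 to 20 lower in growing oeSir3, and 0 to 1 higher in growing sir2D and in sir4D.

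Of 1754 single-gene values under alternatives, 1681 kept direction and side of the threshold, 60 lost and 3 gained it, and 10 reversed. Reversed were ATO3 over starvation (-0.029 to 0.50 when replicates were left out, negative without replicate 2), CIS1 over starvation (-0.13 without oeSir3, -0.26 in the batch with separate values for no coverage), and, over 30 min, MF(ALPHA)1 (-1.08 on the spike-in scale, -0.086 without sir3D, -0.10 without sir4D), YDR133C (-1.04 on the spike-in scale, -0.48 in that batch) and RPL8A (-0.98 on the spike-in scale, -0.12 in the other batch). The cause was not tested. Libraries with 4.0 reads at the median gene limit values of low genes.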
